A study of Mus musculus with 6 samples.

Results

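The genes described are the tumour suppressor p53, encoded by Trp53, and genes that p53 is known to activate: Cdkn1a, Mdm2, Ccng1, Trp53inp1, Sesn1, Zmat3, Phlda3, Perp and, in human cells, Ddb2. They were found as the probe sets whose array annotation gives one of these symbols alone. Of the 10 genes, 9 were found, with 17 of the 22690 probe sets on the array, out of 12393 genes in all. Trp53 itself was named by 0 such probe sets and is not analysed here.

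RNA came from CD4+CD25+ regulatory T cells (Treg), separated magnetically from C57Bl/6 mice. The p300-deleted samples have the genotype fl-p300/Foxp3cre, in which the floxed gene of the histone acetyltransferase p300 (Ep300) is cut by a Cre recombinase made under the control of Foxp3, the lineage factor of Treg. The controls have the genotype Foxp3cre, so both groups carry the Cre, although the control titles read WT. There were 3 samples per group with 1 array each. The sources used here give no age, sex or source organ of the mice. They call the samples independent without tying each to its own animal, so the p-values speak only of the spread among these 6 samples, and part of that spread may be technical. The title of the study places the comparison in the role of p300 in Foxp3+ Treg.

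As background, p53 is a transcription factor that is held low by the ubiquitin ligase Mdm2 and is stabilised when DNA is damaged or a cell is stressed. It then binds paired decamer sites near its targets, which stop the cell cycle, repair DNA, restrain growth signals or promote cell death. The acetyltransferase p300 and its paralogue CBP are known to acetylate p53 and to act as its coactivators, which is why p53 targets are of interest where p300 is deleted. In T cells p53 is known to restrain proliferation after stimulation.

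The promoter windows that bear on this set are shown to place matches to the p53 site beside the measurements. RefSeq windows of the build GRCm38.p6, from 250 bases before to 50 bases after an annotated start, were given for 6 of the 10 genes, 8 windows in all, since Cdkn1a and Sesn1 have a pair of starts each. They were searched on both strands for the p53 consensus decamer, which reads the same on both strands. A half-site is the decamer with no mismatch, and a full site is a pair of decamers at most 3 bases apart with at most 3 mismatches in the pair and none in the 4 central bases of either decamer. A half-site was in 5 of the 8 windows, against 8.36% of all 32851 windows, and a full site in 3, against 2.21%, with overlap between the 2 searches. The first Cdkn1a window lies at chr17:29090729-29091028 on the plus strand and holds a full site with 1 mismatch that begins 51 bases before the start. The second Sesn1 window, at chr10:41887189-41887488 on the plus strand, holds a full site with 2 mismatches and a gap of 3 bases. Mdm2 (chr10:117710709-117711008, minus strand) and Ccng1 (chr11:40755237-40755536, minus strand) hold a half-site each. Capitals mark these matches, which are matches of letters and not measured binding.
Cdkn1a: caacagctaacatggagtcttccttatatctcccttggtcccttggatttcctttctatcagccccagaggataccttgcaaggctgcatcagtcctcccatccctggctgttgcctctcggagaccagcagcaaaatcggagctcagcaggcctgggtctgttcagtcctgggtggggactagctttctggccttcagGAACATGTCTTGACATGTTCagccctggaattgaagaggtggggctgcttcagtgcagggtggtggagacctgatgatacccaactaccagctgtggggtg
Sesn1: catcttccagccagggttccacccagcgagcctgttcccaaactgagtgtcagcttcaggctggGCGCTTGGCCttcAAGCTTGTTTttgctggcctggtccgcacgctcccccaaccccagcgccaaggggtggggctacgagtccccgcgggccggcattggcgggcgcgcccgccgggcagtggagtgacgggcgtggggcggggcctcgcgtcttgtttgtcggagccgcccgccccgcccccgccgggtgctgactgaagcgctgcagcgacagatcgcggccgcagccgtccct
Mdm2: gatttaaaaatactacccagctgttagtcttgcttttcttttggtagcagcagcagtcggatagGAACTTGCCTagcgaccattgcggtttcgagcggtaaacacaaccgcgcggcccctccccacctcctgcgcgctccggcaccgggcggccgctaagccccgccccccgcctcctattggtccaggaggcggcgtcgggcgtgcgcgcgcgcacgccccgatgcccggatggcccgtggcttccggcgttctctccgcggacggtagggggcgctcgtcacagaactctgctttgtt
Ccng1: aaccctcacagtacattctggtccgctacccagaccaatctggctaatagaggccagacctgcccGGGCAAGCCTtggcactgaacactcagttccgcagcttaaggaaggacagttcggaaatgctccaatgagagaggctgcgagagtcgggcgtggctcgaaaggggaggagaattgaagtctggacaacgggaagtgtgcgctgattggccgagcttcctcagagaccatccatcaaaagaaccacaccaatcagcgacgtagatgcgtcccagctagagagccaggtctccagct
The other windows are not printed. That of Trp53 holds a full site with 3 mismatches, and 3 windows, the second of Cdkn1a, the first of Sesn1 and that of Phlda3, hold neither kind of match, which says nothing about sites elsewhere.

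Values are log2 RMA values, so a difference of 1 is a doubling. Differences are p300-deleted minus control, the brightest probe set stands for a gene, and genes with an adjusted p under 0.05 in limma (Benjamini-Hochberg over the 8675 genes tested) counted as changed. The cells were checked on Treg markers. Foxp3 was at 2.57, 3.04 and 3.15 in p300-deleted arrays, below the lower quartile of each array, against 9.63, 9.35 and 9.39 in controls, while Il2ra (CD25) was at 9.16, 9.09 and 9.17 against 8.99, 8.62 and 9.07. Ctla4 and Ikzf2 had differences of 0.30 and 0.60, and Tnfrsf18 of -0.16, none of which passed (limma adjusted p = 0.287, 0.448 and 0.588). Of the 5 Treg markers, Foxp3 alone was near the floor in the p300-deleted group. In bulk samples fewer cells of a type and less RNA per cell cannot be told apart. Array medians were 5.39 to 5.46 in the p300-deleted group and 5.38 to 5.44 in the controls. For Gapdh, the control set at the 3' end exceeded the one at the 5' end, which bears on RNA integrity, by 0.09, 0.14 and 0.06 in the p300-deleted group, against 0.23, 0.59 and 0.21 in the control group. The groups do not overlap in the Gapdh measure, and control 2 stands apart. For actin the same measure was 0.36, 0.43 and 0.29 in p300-deleted arrays, against 0.40, 0.46 and 0.30 in controls. These actin ranges overlap. The part of RNA integrity in the values that follow was not tested.

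Among the p53 targets, 0 of the 8 genes tested passed the test in limma, where 1.72% of all genes tested did, and 1 had an unadjusted p under 0.05, against 18.1% of all genes. Perp lay below the limit for dim genes and was not tested. The differences ran from -0.56 (Sesn1) to 0.26 (Ddb2), 5 negative and 3 positive, with a median of -0.07 beside -0.03 over all genes tested, of which 45.0% were positive. For Sesn1, Phlda3 and Ddb2, 3 of 8, the p300-deleted arrays all lay on one side of the controls, against 23.7% of all genes tested. Sesn1 and Phlda3 were the lower ones, where 13.2% of all genes lay apart in that direction, and Ddb2 the higher one, where 10.5% did. The mean deviation of the 9 genes per array was 0.01, -0.06 and -0.07 in the p300-deleted group, against 0.06, -0.02 and 0.08 in the control group, and these ranges overlap.

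**Figure D1:**
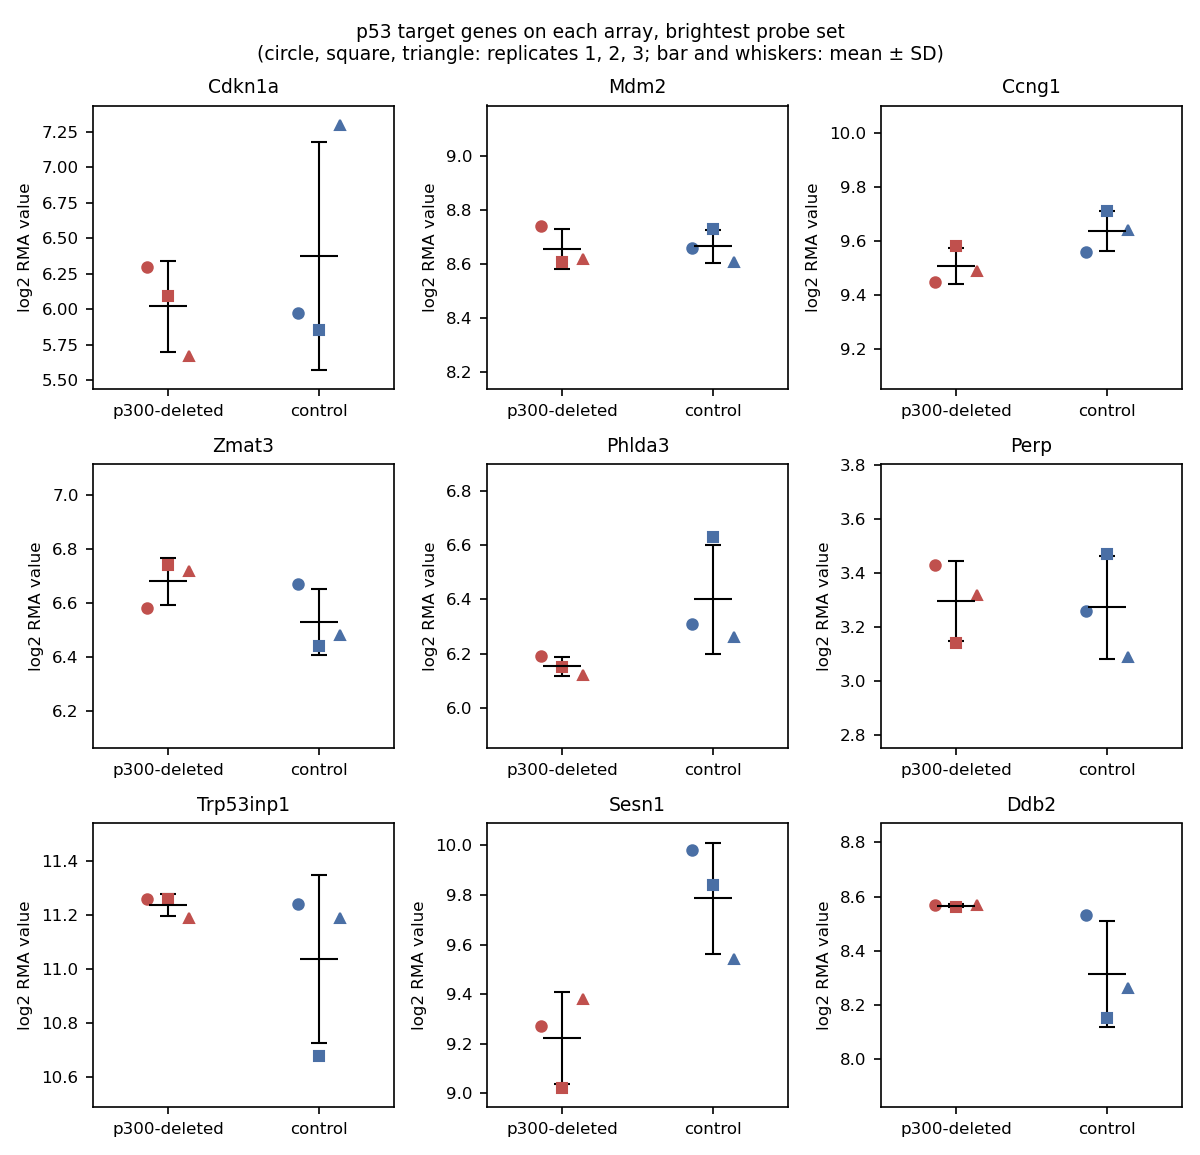
Log2 RMA value (vertical axis) of the brightest probe set of each of the 9 p53 target genes in the p300-deleted and control arrays; symbols are replicates, and the bar with whiskers is the mean ± SD (n = 3). The groups are apart for Sesn1, Phlda3 and Ddb2 and overlap for the other genes, and the control 3 array stands above the other arrays for Cdkn1a at 7.30.

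Mdm2 and Ccng1 act back on p53. Mdm2, the ligase that marks p53 for destruction, was at 8.74, 8.61 and 8.62 in p300-deleted arrays and at 8.66, 8.73 and 8.61 in controls. The arrays of both groups are mixed, and the difference was -0.01 (SE 0.10, 95% interval -0.24 to 0.22, limma adjusted p = 0.973). Its dimmer probe set, 1427718_a_at, was at 6.51, 6.17 and 6.30 in p300-deleted arrays and at 5.80, 5.45 and 6.32 in controls. That is a positive difference of 0.47 (SE 0.21), in which the control 3 array reaches the p300-deleted ones, and it did not pass (adjusted p = 0.306 in a fit over 14266 probe sets).

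Ccng1 encodes cyclin G1, which recruits a phosphatase to Mdm2. Its brightest probe set was at 9.45, 9.58 and 9.49 in p300-deleted arrays and at 9.56, 9.71 and 9.64 in controls. These ranges overlap in 1 array on each side, and the difference was -0.13 (SE 0.10, limma adjusted p = 0.556). The probe set 1450017_at, named for the same source sequence, went the other way. It was at 7.79, 7.95 and 7.04 in p300-deleted arrays and at 6.82, 6.48 and 7.03 in controls, where the third arrays of both groups nearly coincide. Its difference of 0.82 (SE 0.25, 95% interval 0.25 to 1.38) did not pass over all probe sets (limma adjusted p = 0.161), and the third, 1450016_at, was at -0.21 (SE 0.23). The direction for Ccng1 therefore depends on the probe set.

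**Figure D2:**
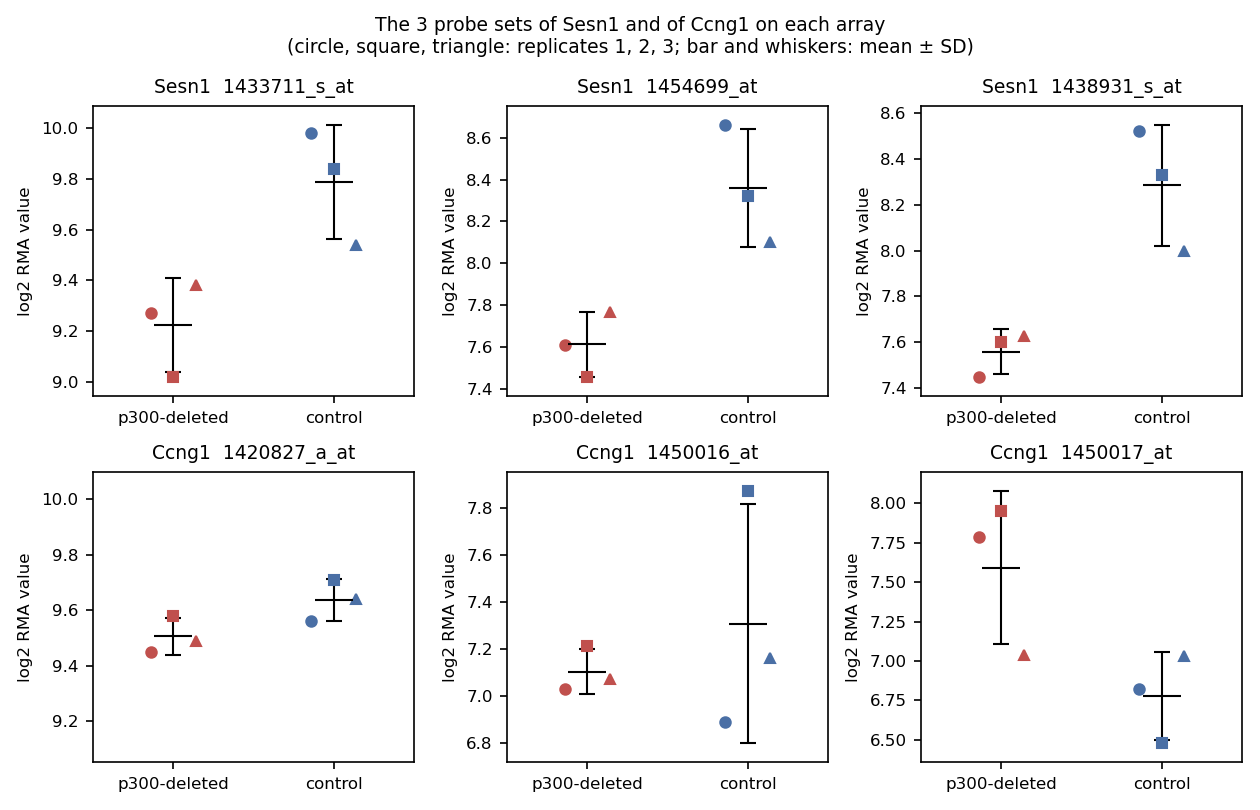
Log2 RMA values (vertical axis) of the 3 probe sets of Sesn1 (upper row) and of Ccng1 (lower row) in p300-deleted and control arrays, with replicates as symbols and the mean ± SD (n = 3). All 3 Sesn1 probe sets are lower in every p300-deleted array than in every control array, whereas the Ccng1 probe sets differ from each other in direction.

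Cdkn1a encodes p21, the inhibitor of cyclin-dependent kinases through which p53 halts the cell cycle. It was at 6.30, 6.09 and 5.67 in p300-deleted arrays and at 5.97, 5.85 and 7.30 in controls. The control 3 array stands above all others, and the remaining 5 arrays are mixed. The difference was -0.36 (SE 0.36, 95% interval -1.17 to 0.45, limma adjusted p = 0.650), and without the control 3 array it was 0.11 (SE 0.18, adjusted p = 0.764). With the 18S ribosomal RNA level of each array in the model (a choice made after seeing the data) it was -0.94 (SE 0.29, adjusted p = 0.247). A second probe set, 1421679_a_at, was at 5.45, 5.23 and 5.42 in p300-deleted arrays and at 5.66, 5.56 and 6.29 in controls. Its groups do not overlap, with a difference of -0.47 (SE 0.19) that did not pass over all probe sets (limma adjusted p = 0.266).

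Over the 6 arrays, the tested genes whose log2 profile lay closest to that of Cdkn1a, by the root mean square difference of values centred on each gene's mean, were Gm9222 (0.123), Ccl17 (0.154) and Insm1 (0.157). Each was highest in the control 3 array, at 6.73 for Gm9222, 5.54 for the chemokine gene Ccl17 and 5.73 for Insm1, a zinc finger factor of neuroendocrine cells. Their differences between the groups were -0.29, -0.24 and -0.26, and none of the 3 passed in limma (adjusted p = 0.649, 0.718 and 0.798). The 3 genes were picked for this likeness over the same 6 arrays. Their peak in control 3 and their differences near that of Cdkn1a follow from that choice and are not separate results.

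Sesn1, Phlda3 and Trp53inp1 belong to the arm of the response that acts on growth signals, stress and autophagy. Sesn1 encodes sestrin 1, a stress protein that restrains the mTORC1 growth pathway. Its brightest probe set, 1433711_s_at, was at 9.27, 9.02 and 9.38 in p300-deleted arrays and at 9.98, 9.84 and 9.54 in controls. Every p300-deleted array was below every control array. The difference was -0.56 (0.68 times the control on the linear scale, SE 0.15, 95% interval -0.90 to -0.22), with an unadjusted p of 0.00473 and a limma adjusted p of 0.101, so it did not pass. A difference of at least this size, in either direction, was seen in 5.31% of the genes tested.

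Both other Sesn1 probe sets had the same order of groups. The probe set 1454699_at was at 7.61, 7.46 and 7.77 in p300-deleted arrays and at 8.66, 8.32 and 8.10 in controls, a difference of -0.74 (SE 0.16, limma adjusted p = 0.0857). The probe set 1438931_s_at was at 7.45, 7.6 and 7.63 in p300-deleted arrays and at 8.52, 8.33 and 8.0 in controls, a difference of -0.72 (SE 0.15, limma adjusted p = 0.0757). In all 3 the control 3 array is the lowest control. The probe sets read the same RNA, and 2 of them are named for the same source sequence, so they are not separate evidence.

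Sesn1 passed under 2 of 16 alternatives. Without the control 3 array the difference was -0.68 (SE 0.14, limma adjusted p = 0.0455), where 2.65% of genes passed, and with array weights it was -0.72 (adjusted p = 0.0136), where 11.7% passed. The 18S signal, averaged over its control probe sets, ran broadly opposite to Sesn1. It was 7.74, 9.47 and 7.91 in the p300-deleted group, against 5.68, 6.03 and 8.69 in the control group. The array highest in 18S, p300-deleted 2, was the lowest for Sesn1, and control 1, lowest in 18S, was the highest. Control 3, the lowest control for Sesn1, lies within the p300-deleted range in 18S. Not all arrays follow this order. Control 3 was above p300-deleted 1 and 3 in 18S, and its Sesn1 value of 9.54 was also above theirs (9.27 and 9.38). When the 18S mean was entered as a covariate, which was decided on after the data were seen, the Sesn1 difference was -0.33 (SE 0.13, adjusted p = 0.343). Most p300-deleted arrays also had more 18S than most controls, so this covariate and the group cannot be fully told apart. The part of 18S in the Sesn1 values was not tested.

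Phlda3 encodes a small lipid-binding protein that competes with Akt at the membrane. It was at 6.19, 6.15 and 6.12 in p300-deleted arrays and at 6.31, 6.63 and 6.26 in controls. The p300-deleted arrays were all lower, by a narrow margin to 2 of the controls. The difference was -0.25 (SE 0.12, 95% interval -0.53 to 0.03, limma adjusted p = 0.331), and it was -0.13 without control 2, the control farthest from the p300-deleted arrays.

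Trp53inp1 encodes a stress protein that takes part in autophagy and in the phosphorylation of p53. It was at 11.26, 11.26 and 11.19 in p300-deleted arrays and at 11.24, 10.68 and 11.19 in controls. All arrays but control 2 lie close together, and the difference was 0.20 (SE 0.15, 95% interval -0.15 to 0.55, limma adjusted p = 0.541), and it was 0.028 without control 2. Its second, much dimmer probe set had a difference of 0.07 (SE 0.19).

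Zmat3 and Perp have roles in RNA stability and cell death. Zmat3, an RNA-binding zinc finger protein, was at 6.58, 6.74 and 6.72 in p300-deleted arrays and at 6.67, 6.44 and 6.48 in controls. The groups overlap through control 1, and the difference was 0.15 (SE 0.11, limma adjusted p = 0.540). Perp, a membrane protein of desmosomes that promotes apoptosis, was at 3.43, 3.14 and 3.32 in p300-deleted arrays and at 3.26, 3.47 and 3.09 in controls. These values lie under the limit of 3.91 for dim genes and near the lower quartile of the arrays (3.26 to 3.31), and the difference of 0.02 (SE 0.13, from the fit without a limit) says little about its transcript.

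Ddb2 encodes the damage-binding subunit that opens nucleotide excision repair of ultraviolet lesions and is a p53 target in human cells. Its brightest probe set was at 8.57, 8.56 and 8.57 in p300-deleted arrays and at 8.53, 8.15 and 8.26 in controls. The p300-deleted arrays were all higher, although control 1 lay just below them. The difference was 0.26 (SE 0.12, 95% interval -0.02 to 0.53, limma adjusted p = 0.306), and the second probe set had a difference of 0.01 (SE 0.12).

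Read probe set by probe set, 0 of the 16 tested member probe sets passed in limma, where 0.456% of all probe sets tested did, and 5 had an unadjusted p under 0.05, against 17.3% of all probe sets tested. These were the 3 of Sesn1, 1 of Cdkn1a and 1 of Ccng1. The groups did not overlap for 7 of the 16, against 23.1% of all probe sets tested. Of the 6 genes with several probe sets, 4 kept one sign in all of them, and Mdm2 and Ccng1 did not.

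**Figure D3:**
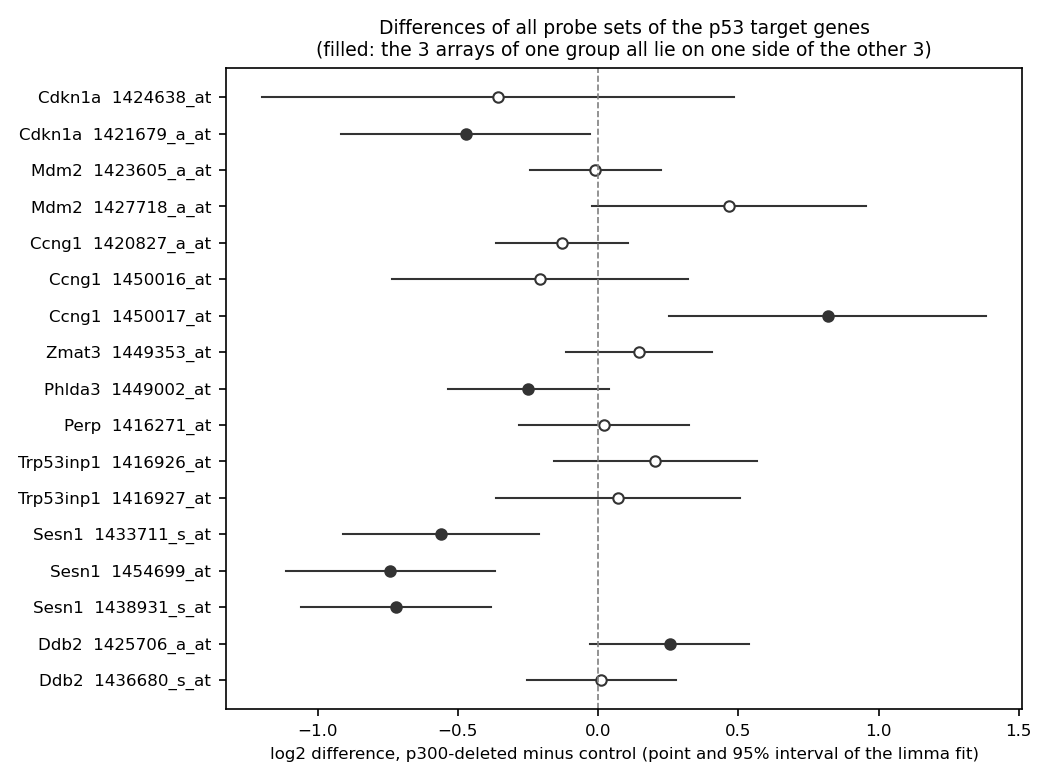
Log2 difference, p300-deleted minus control, of each of the 17 probe sets of the p53 target genes (horizontal axis), with its 95% interval from the limma fit; filled points mark probe sets whose groups do not overlap. The intervals of the 3 Sesn1 probe sets and 1 Cdkn1a probe set lie below 0, that of 1 Ccng1 probe set (difference 0.82) lies above it, and the others include it.

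A longer list of known p53 targets was described in the same way. Of 33 listed, 28 had a probe set, 24 were tested, 1 rose and 23 did not pass, with 13 positive values and a median of 0.02. Among all genes tested, 0.991% were called higher and 0.726% lower. Fas, the death receptor, was the called gene of the list, at 7.59, 7.66 and 7.45 in p300-deleted arrays and at 7.01, 6.87 and 7.09 in controls. The groups are well apart, with a difference of 0.58 (SE 0.11, limma adjusted p = 0.0459). The count was 0 when any array but control 3 was left out, with Fas at 0.52 to 0.64 in those 5 fits of fewer arrays, and 2 without control 3. Of all 8675 genes tested, 9 to 118 were called in those 5 fits and 230 (2.65%) without control 3. Btg2, an antiproliferative gene that p53 and other signals induce, was at 10.20, 10.83 and 10.65 in p300-deleted arrays and at 9.10, 8.59 and 9.98 in controls. Its groups do not overlap, and the difference of 1.34 (SE 0.32, limma adjusted p = 0.0810) did not pass. Btg2 passed under 2 of 16 alternatives, at 1.72 (adjusted p = 0.0157) without control 3 and at 1.46 (adjusted p = 0.00810) with array weights. When any other array was left out, its limma adjusted p was 0.109 to 0.288. With the 18S covariate the Btg2 difference was 0.79 (adjusted p = 0.237).

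Several other targets, chosen after their values were seen, had uncalled differences in both directions. The p53-induced ribonucleotide reductase subunit gene Rrm2b, which supplies nucleotides for repair, was at 0.32 (SE 0.11, limma adjusted p = 0.198). Ckap2, a spindle protein that is also a cell cycle gene, was at -0.83 (SE 0.27, adjusted p = 0.158). The apoptosis genes Bbc3 (Puma) and Pmaip1 (Noxa) were at -0.13 and -0.18, and Gadd45a, a growth arrest gene, was at -0.30.

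Of 25 listed regulators of p53, 21 had a probe set, 18 were tested, 1 fell and 17 did not pass, with 12 positive values and a median of 0.08. Over all genes tested, 0.726% were called lower and 45.0% were positive. The gene that fell was Chek1, the checkpoint kinase Chk1, known to phosphorylate p53 and to be expressed in cycling cells. It was at 5.31, 5.02 and 5.28 in p300-deleted arrays and at 5.89, 6.01 and 6.46 in controls. All p300-deleted arrays were lower, and the difference was -0.92 (SE 0.16, limma adjusted p = 0.0405). Chek1 was past the threshold under 7 of 15 alternatives. It was at -0.45 (adjusted p = 0.160) with the mean of its 4 probe sets, and its call was lost when any array but control 3 was left out, with differences of -1.04 to -0.83 in those 5 fits of fewer arrays. In the same 5 fits, 9 to 118 of all 8675 genes tested were called. Mdm4, the partner of Mdm2 that masks the activation domain of p53, was at 9.12, 9.11 and 8.73 in p300-deleted arrays and at 8.98, 8.0 and 8.63 in controls, which overlap (difference 0.45, SE 0.23, limma adjusted p = 0.359, and 0.18 without control 2). Crebbp, which encodes CBP, was at 0.04 (SE 0.12), and Ep300, named by 0 probe sets, is not analysed here.

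p21 is known to lower cell cycle genes by keeping kinases from disarming the DREAM repressor complex, so genes of this group were described beside Cdkn1a. Of 24 listed, 22 had a probe set and 21 were tested. All 21 had negative values, 6 fell and 15 did not pass, with a median of -0.88. The share called lower over all genes tested was 0.726%, and 45.0% of all genes tested were positive. Aurkb, a mitotic kinase, was at 5.52, 4.88 and 5.22 in p300-deleted arrays and at 6.43, 6.17 and 7.17 in controls (difference -1.38, SE 0.26, limma adjusted p = 0.0445). Ccne1, the cyclin of the entry into S phase, was at 6.21, 5.86 and 5.95 in p300-deleted arrays and at 6.75, 6.92 and 6.97 in controls (difference -0.88, SE 0.13, adjusted p = 0.0223). The groups are apart for both. The kinase Ttk and the kinesin Kif20a also fell, to differences of -1.26 and -1.07. The last called genes, chosen after their values were seen, were the transcription factor Mybl2 at -0.80 and the replication helicase gene Mcm5 at -0.68.

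The mean deviation of the 22 genes was -0.20, -0.59 and -0.53 in the p300-deleted group, against 0.33, 0.04 and 0.94 in the control group. Control 3 thus had both the highest level of the cell cycle genes and the highest Cdkn1a value, while the p300-deleted arrays were low in the cell cycle genes and had Cdkn1a values of 5.67 to 6.30, around the 5.97 and 5.85 of controls 1 and 2, on the brighter probe set. On the dimmer one they were below all controls, as given above. These are RNA values, and the part of p21 in the levels of the cell cycle genes was not tested. Leaving out p300-deleted 1 turned the count of 6 called genes into 2, and leaving out p300-deleted 2, p300-deleted 3 or control 1 turned it into 0. The count was 10 when control 2 was left out and 6 when control 3 was. Calls over all 8675 genes tested also moved, from 149 to 35 without p300-deleted 1 and 22 without p300-deleted 2. They were 30 without p300-deleted 3, 9 without control 1, 118 without control 2 and 230 without control 3. With the 18S covariate 0 of the list and 15 of all genes were called. The 4 genes named by size kept differences of -1.60 (Aurkb), -1.38 (Ttk), -1.27 (Kif20a) and -0.88 (Ccne1) there, with limma adjusted p of 0.0554 to 0.126. The list was already known to be lower when it was chosen.

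**Figure D4:**
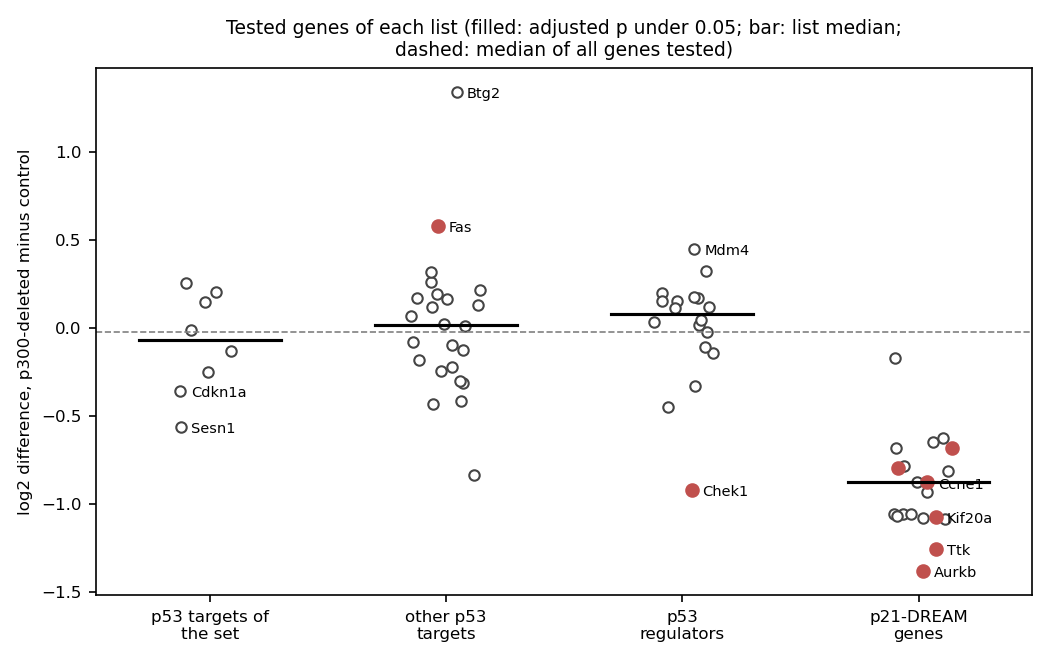
Log2 difference, p300-deleted minus control (vertical axis), of each tested gene of the p53 target set, the other p53 targets, the p53 regulators and the p21-DREAM cell cycle genes; filled points passed the test, bars are list medians and the dashed line is the median of all genes tested. The 3 p53 lists lie around the dashed line with Fas above and Chek1 below as called genes, and the cell cycle genes all lie below it.

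Mean levels of markers of other cells that the separation could hold moved with the groups, except for B cells. Over all genes tested, 0.991% rose in limma and 45.0% had positive differences. Plasma cell markers (7 of 7 with a probe set, 5 rose) had mean deviations of 0.24 to 0.78 in p300-deleted arrays and -0.56 to -0.46 in controls. Mast cell and basophil markers (7 of 7, 4 rose) had 0.26 to 0.92 against -0.61 to -0.40, and myeloid markers (9 of 9, 0 passed in limma and 4 had an unadjusted p under 0.05) had 0.07 to 1.24 against -1.0 to -0.06. NK markers (5 of 6, 1 rose) had -0.03 to 0.54 against -0.37 to -0.26. The NK marker that rose was Gzma, at 0.73 (limma adjusted p = 0.0445). Ncr1 at 1.46 and Klrk1 at 1.15 did not pass (limma adjusted p = 0.0982 and 0.145). Among the markers tested, 6 of 7 plasma cell and 3 of 5 NK markers had positive differences. The negative ones were Prdm1 (-0.09), Eomes (-0.26) and Prf1 (-0.007). All 7 myeloid and all 6 mast cell and basophil markers tested were positive, but Cst3 (0.03) and Kit (0.09) only slightly. Of the markers, Itgam, Cd14, Ms4a2 and Pax5 were below the limit for dim genes. B cell markers (6 of 7, 0 passed in limma and at an unadjusted p under 0.05) overlapped, at -0.37 to 0.17 in p300-deleted arrays and -0.10 to 0.17 in controls. The T cell markers Cd3e, Cd3d, Cd4 and Cd2 (4 of 5 with a probe set) were at 0.11 to 0.27 in p300-deleted arrays and -0.28 to -0.05 in controls. The part of these cells in the values of Sesn1, Fas and the cell cycle genes was not tested.

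**Figure D5:**
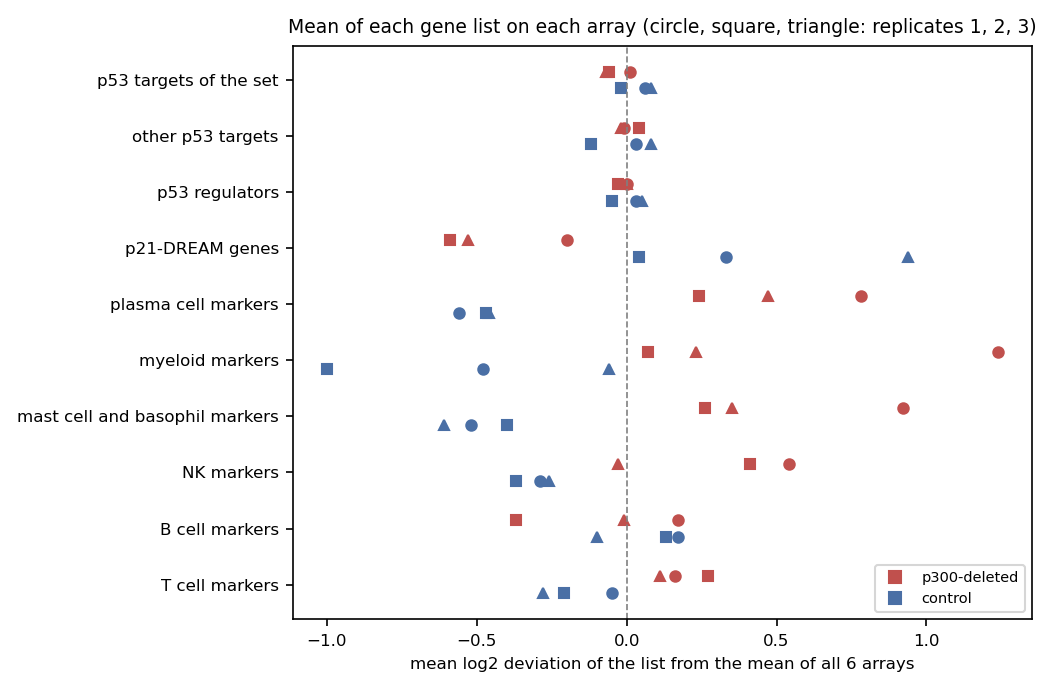
Mean log2 deviation of each gene list from its mean over all 6 arrays (horizontal axis), with 1 symbol per array and the p300-deleted arrays above the controls in each row. The p53 target set, the other targets and the regulators stay within 0.12 of 0 on every array, whereas the arrays of the groups do not overlap for the cell cycle genes and for the plasma cell, myeloid, mast cell, NK and T cell markers.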

How the data were processed

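RNA was measured on 6 arrays, 3 p300-deleted and 3 control, grouped by the sample titles. Per the submitters' processing notes, the authors made the deposited log2 values with RMA (version: not given in the sources used here). RMA subtracts background and brings the arrays to one distribution, which hides any shift in RNA content and compresses dim differences. Of 22690 probe sets, 64 were controls, and 20380, 691 and 1555 of the others had 1, several and no gene symbol. Of those with 1 symbol, 20351 were matched to RefSeq by gene ID. For each of 12393 genes the brightest probe set was used, and the dimmest 30% (means under 3.91) were left out, leaving 8675. The comparison was two-sided and without covariates, by limma 3.58.1 (lmFit, eBayes) under R 4.3.3, and 14266 probe sets were fitted alike. The fit was also run on simulated data with independent noise in each value. Those data held no differences shared across an array, so they cannot show how such differences affect the calls. The number of arrays limits the precision.

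The genes and lists were chosen with earlier results of these data known. Named from each further list were up to 4 genes past the threshold by size, or, where fewer than 2 passed, the largest differences up to 2, and for Cdkn1a the 3 genes most alike. This last step could not be run for Trp53. Probe sets with the endings _a_at, _s_at or _x_at may also read related transcripts.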

Additional observations from a re-analysis of the deposited data

How the results depend on the processing

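With 3 arrays per group, calls of the named list genes were lost in some fits that left out 1 array. Such fits also have less precision, and what set the calls was not tested. Of 128 differences computed for the p53 targets under the alternatives, 119 kept their direction and side of the threshold, 7 changed sign and 2 newly passed. Sesn1 passed with array weights (-0.72) and without control 3, its range over left-out arrays being -0.68 to -0.46. Signs changed for Cdkn1a (0.11 without control 3, range -0.62 to 0.11), for Mdm2 (0.23 with the mean of all probe sets, 0.039 with the 18S covariate, and -0.051 to 0.022 over left-out arrays, positive without p300-deleted 2, p300-deleted 3 or control 2) and for Ccng1 (0.16 with the mean of all probe sets). Array weights brought Cdkn1a to -0.095, Ccng1 to -0.068, Trp53inp1 to 0.077, Zmat3 to 0.068, Ddb2 to 0.12 and Mdm4 to 0.19. Perp, below the dim limit, had no alternatives. Of 124 values of named list genes, 39 lost and 2 gained a call, and 0 changed sign.

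The count of p53 targets called was 1 with array weights, 0 to 1 over left-out arrays, and otherwise 0 in limma. Changed genes numbered 149, against 95 with the mean of all probe sets, 55 with every probe set on its own, 1019 with array weights, 98 with the replicate block, 15 with the 18S covariate, 399 at a threshold of 0.1 and 9 to 230 over left-out arrays. Other p53 targets numbered 6 with array weights, 2 at 0.1, 0 to 2 over left-out arrays, and 0 with further quantile normalization, median centring, every probe set, the block and the 18S covariate. Regulators numbered 0 with the dimmest 50% left out, the mean of probe sets, every probe set and the 18S covariate, and 0 to 1 over left-out arrays. Cell cycle genes numbered 3 with the dimmest 50% left out, 3 with the mean of probe sets, 2 with every probe set, 18 with array weights, 0 with the 18S covariate, 13 at 0.1 and 0 to 10 over left-out arrays. The causes were not tested. Deviations of same-numbered arrays correlated at -0.07, 0.12 and -0.12, and those of unlike-numbered arrays at -0.19 to 0.23. With 3 arrays per group, this cannot decide whether the numbers pair the samples. The replicate block left the Sesn1 difference at -0.56 (limma adjusted p = 0.147).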
